A study of Homo sapiens with 14 samples.

Results

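HLA-B, HLA-C, HLA-E, B2M, TAP1, TAP2, TAPBP, PSMB8, and PSMB9 are 9 genes of the MHC class I pathway, which displays peptides from inside the cell on its surface. They were picked by gene name from a deposited table of 19410 genes, all 9 were found in it, and all 9 were among the 13540 genes tested. Their RNA was measured by RNA-Seq in MDA-MB-231, a triple-negative breast cancer cell line, and in 6 lines edited from these parental cells with CRISPR/Cas9. SAP30-KO1 and SAP30-KO2 were edited at SAP30, SIN3A+SIN3B-DKO1 and SIN3A+SIN3B-DKO2 at both SIN3A and SIN3B, and MLL1-KO1 and MLL1-KO2 at MLL1. By the study's methods a line was a mix of several single knockout cells and not 1 clone. The labels name no treatment of the cells before RNA was taken. By the study's methods the edited lines went through puromycin selection when they were made, a step not described for the parental cells. Each of the 7 conditions had 2 libraries, and all 6 lines were compared with the same 2 parental libraries. The labels do not say that the 2 libraries came from separate cultures, so the p-values measure only the spread between these libraries, which may be technical.

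Class I molecules are made of a heavy chain, encoded by genes such as HLA-B, HLA-C, and HLA-E, and the invariant light chain beta2-microglobulin, encoded by B2M. Peptides are cut by proteasomes, in which PSMB8 and PSMB9 can replace constitutive catalytic subunits to form the immunoproteasome. They are pumped into the endoplasmic reticulum by the TAP1 and TAP2 transporter and loaded onto heavy chains with the help of tapasin, encoded by TAPBP. CD8 T cells read the display, and natural killer cells sense its loss. Interferon raises most of these genes together, through IRF1 and the class I transactivator NLRC5.

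Whole reads recovered from the deposited values numbered from 18415039 to 23162682 a library, with a median of 21648530. The targeted genes served as a check of the labels. SAP30 RNA averaged 80.8 TPM (transcript counts per length, scaled to 1000000 a library) in parental cells, 3.43 in SAP30-KO1, and 3.86 in SAP30-KO2. The MLL1 gene, listed as MLL, averaged 52.8 TPM in parental cells, 16.6 in MLL1-KO1, and 26.7 in MLL1-KO2, and it was also at 27.3 and 33.4 TPM in SAP30-KO1 and SAP30-KO2. SIN3B fell from 76.2 TPM in parental cells to 49.6 and 46.6 in the libraries labelled SIN3A+SIN3B-DKO1 and SIN3A+SIN3B-DKO2. SIN3A RNA averaged 61.6 and 55.1 TPM in these libraries against 44.2 in parental, so its RNA does not show the loss the label names. RNA values do not measure protein, and the study reports that its knockout cells were checked by immunoblot. SIN3A+SIN3B-DKO is used here for the libraries the authors labelled so. In bulk RNA, fewer cells making a transcript and less transcript in each cell cannot be told apart.

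HLA-B fell in the MLL1-KO and SIN3A+SIN3B-DKO lines, HLA-C, TAP1, and PSMB9 in the MLL1-KO lines, and TAPBP in the SIN3A+SIN3B-DKO lines. Calling a gene took a limma p under 0.05 after Benjamini-Hochberg adjustment and a change of at least 1.5-fold on the log2(TPM + 0.5) scale. In MLL1-KO1, 4 of the 9 genes were called lower, where 16.3% of all tested genes were called lower. The count in MLL1-KO2 was also 4 lower, against 14.9% of all tested genes. The 4 genes were HLA-B, HLA-C, TAP1, and PSMB9 in both lines. In SIN3A+SIN3B-DKO1 and SIN3A+SIN3B-DKO2, 2 of 9 were called lower, HLA-B and TAPBP in each, where 8.66% of all tested genes were lower in the first of these lines and 7.56% in the second. Neither SAP30-KO line had a call among the 9 in either direction, where 15.7% of all genes were called in SAP30-KO1 and 15.6% in SAP30-KO2. In SAP30-KO1 4 and in SAP30-KO2 1 of the 9 had an unadjusted limma p under 0.05. The share of all genes under that unadjusted p was not computed, so these counts have no background to be read against. The other test run, voom on the recovered reads, called 0 in each of these 2 lines. No class I gene was called higher in any of the 6 lines by limma or by voom. By adjusted p alone, with no fold minimum, 9 and 8 of the 9 genes were lower in MLL1-KO1 and MLL1-KO2 (38.7% and 36.2%) and 8 and 8 in SIN3A+SIN3B-DKO1 and SIN3A+SIN3B-DKO2 (28.2% and 23.9%), where shares of all genes stand in parentheses. By the same rule 2 were higher and 1 lower in SAP30-KO1 (28.1% and 22.9% of all genes), and 0 higher and 1 lower in SAP30-KO2 (26.9% and 24.8%).

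Taken over the 9 genes, the median log2 fold change was -0.38 in both MLL1-KO lines, where that of all tested genes was -0.09 (MLL1-KO1) and -0.04 (MLL1-KO2). It was -0.38 and -0.41 in SIN3A+SIN3B-DKO1 and SIN3A+SIN3B-DKO2, where all genes had a median of 0.00 and 0.01. It was 0.07 and 0.00 in SAP30-KO1 and SAP30-KO2, beside 0.03 and 0.01 for all genes. Quantile normalization moved the median of all genes by 0.145 for MLL1-KO1 and by 0.0604 for MLL1-KO2, and the split of calls over all genes then went from 933 higher and 2210 lower to 1451 higher and 1545 lower in MLL1-KO1, and from 1387 and 2021 to 1788 and 1680 for MLL1-KO2. Under that scaling PSMB9 was no longer called in MLL1-KO1, with a log2 fold change of -0.39, while the other 7 calls in the MLL1-KO lines and the 4 in the SIN3A+SIN3B-DKO lines stood.

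**Figure D1:**
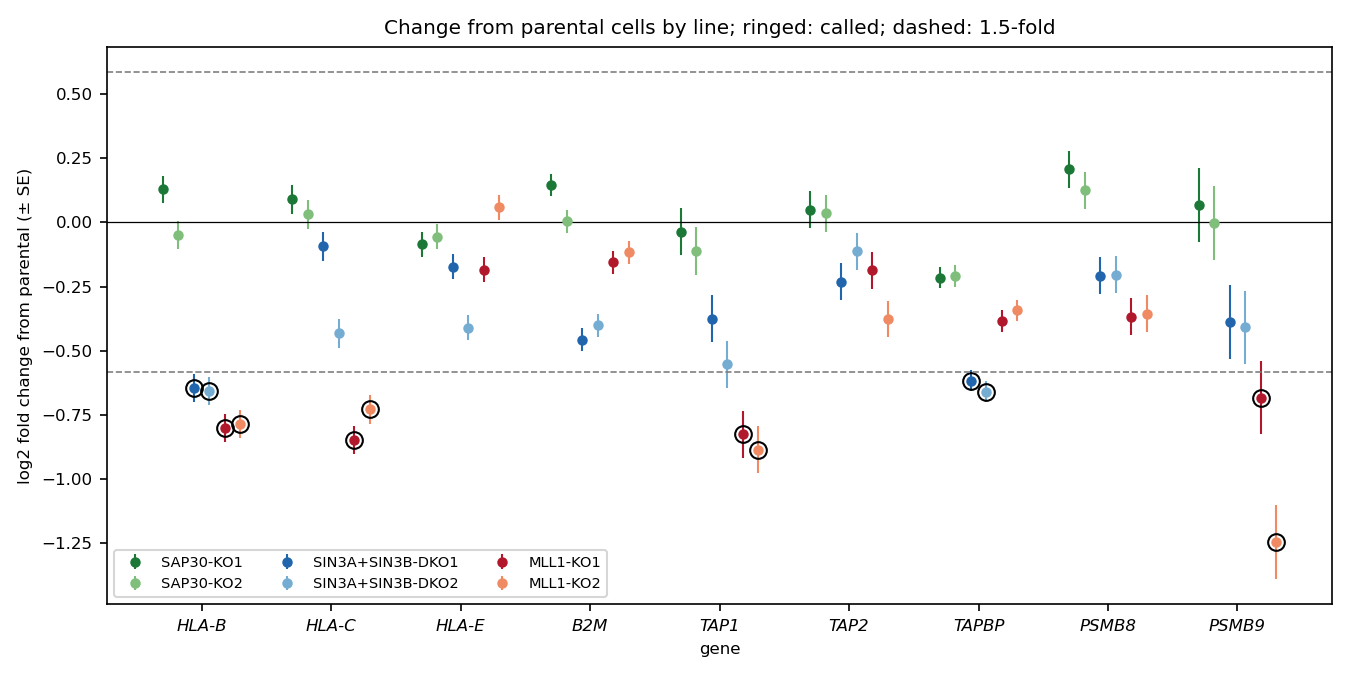
Log2 fold change from parental of each of the 9 class I pathway genes (horizontal axis) in the 6 edited lines, on the log2(TPM + 0.5) scale, with bars for the limma standard error; ringed points were called, and dashed lines mark 1.5-fold. HLA-B lies below the lower dashed line in 4 lines, TAPBP in the 2 SIN3A+SIN3B-DKO lines only, and HLA-C, TAP1, and PSMB9 in the 2 MLL1-KO lines only, while every SAP30-KO point lies between -0.22 and 0.21.

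HLA-B encodes a classical heavy chain, and lies on chromosome 6 at 31321649 to 31334844 on the minus strand of GRCh37, in the GENCODE 44 annotation. Its values were 38.6 and 36.9 TPM in parental, 40.8 and 41.8 for SAP30-KO1, 36.3 and 36.6 for SAP30-KO2, 24.5 and 23.4 for SIN3A+SIN3B-DKO1, 24.7 and 22.8 for SIN3A+SIN3B-DKO2, 21.5 and 21.4 for MLL1-KO1, and 22.4 and 20.9 for MLL1-KO2. All 8 libraries of the SIN3A+SIN3B-DKO and MLL1-KO lines thus lay below all 6 of the parental and SAP30-KO lines. The share of all genes whose libraries separate in such ways was not computed, for this gene or the others. Groups of 2 libraries can separate without a small p, as HLA-B did in SAP30-KO2 against parental (limma adjusted p = 0.47). The means were 63.5% and 62.9% of parental in the SIN3A+SIN3B-DKO lines and 56.8% and 57.5% in the MLL1-KO lines. The log2 fold changes were -0.65 and -0.66 in the former (SE 0.05, limma adjusted p = 3.2e-06 and 3.3e-06) and -0.80 and -0.79 in the latter (SE 0.05, adjusted p = 3e-07 and 3.1e-07).

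HLA-C, the classical heavy chain most used as a ligand of inhibitory natural killer receptors, lies on the same arm at 31236526 to 31239907, minus strand. It measured 27.5 and 27.4 TPM in parental, 29.2 and 29.3 for SAP30-KO1, 28.3 and 27.9 for SAP30-KO2, 26.0 and 25.4 for SIN3A+SIN3B-DKO1, 21.4 and 19.1 for SIN3A+SIN3B-DKO2, 15.2 and 14.9 for MLL1-KO1, and 16.5 and 16.2 for MLL1-KO2. The 4 MLL1-KO libraries were lowest, at 54.7% and 59.6% of parental in the means, with log2 fold changes of -0.85 and -0.73 (SE 0.06, limma adjusted p = 2.5e-07 and 7.5e-07). The 2 lines of the SIN3 double knockout did not match. HLA-C was at 93.7% of parental in SIN3A+SIN3B-DKO1 (log2 fold change -0.09, adjusted p = 0.18) and at 73.8% in SIN3A+SIN3B-DKO2 (-0.43, adjusted p = 9.1e-05, under 1.5-fold), and the lines differed by 0.34 on the log2 scale (SE 0.06, adjusted p = 0.0037).

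HLA-E, a nonclassical heavy chain that presents leader peptides of other class I chains to natural killer cells, lies at 30457286 to 30461971 on the plus strand. It measured 24.9 and 25.0 TPM in parental, 23.1 and 23.9 for SAP30-KO1, 23.9 and 24.1 for SAP30-KO2, 22.1 and 22.1 for SIN3A+SIN3B-DKO1, 19.4 and 17.9 for SIN3A+SIN3B-DKO2, 21.9 and 21.9 for MLL1-KO1, and 26.3 and 25.7 for MLL1-KO2. No line was called. The lowest values were those of SIN3A+SIN3B-DKO2, at 74.8% of parental (log2 fold change -0.41, limma adjusted p = 4.8e-05, under 1.5-fold). The MLL1-KO lines fell on either side of parental, with log2 fold changes of -0.19 and 0.06 (SE 0.05), and differed from each other by -0.24 (SE 0.05, limma adjusted p = 0.0022). Between all MLL1-KO and all SAP30-KO libraries the difference of HLA-E was 0.01 (SE 0.03, adjusted p = 0.86), and the libraries overlapped. Class I heavy chains are alike in sequence and vary between people, and reads that fit several of them could be assigned or lost in ways the values do not show.

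The promoters of HLA-B and HLA-C are shown because these neighbours moved together in the MLL1-KO lines and apart in SIN3A+SIN3B-DKO1. Both windows run from 250 bases before to 50 after the RefSeq gene start, 5′ to 3′ along the gene, on GRCh38.p14, a later build than the hg19 of the values. Capitals mark matches, on either strand, to AANNGAAA, the core letters of interferon regulatory factor elements, or to the NF-kappaB consensus. The pair is identical at 269 of 304 aligned positions, or 88.5%. Each holds 1 AANNGAAA match, read on the opposite strand, and HLA-B holds 2 overlapping NF-kappaB matches where HLA-C holds 1. RefSeq windows matched 8 of the 9 genes, HLA-E being the other.
HLA-B, chr6:31357130-31357429, minus strand: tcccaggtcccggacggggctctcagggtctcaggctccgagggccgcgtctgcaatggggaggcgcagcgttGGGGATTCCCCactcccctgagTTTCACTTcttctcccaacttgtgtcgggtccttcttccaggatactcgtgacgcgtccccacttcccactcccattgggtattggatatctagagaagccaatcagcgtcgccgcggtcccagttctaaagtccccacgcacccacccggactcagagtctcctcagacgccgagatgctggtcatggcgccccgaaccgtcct
HLA-C, chr6:31272043-31272342, minus strand: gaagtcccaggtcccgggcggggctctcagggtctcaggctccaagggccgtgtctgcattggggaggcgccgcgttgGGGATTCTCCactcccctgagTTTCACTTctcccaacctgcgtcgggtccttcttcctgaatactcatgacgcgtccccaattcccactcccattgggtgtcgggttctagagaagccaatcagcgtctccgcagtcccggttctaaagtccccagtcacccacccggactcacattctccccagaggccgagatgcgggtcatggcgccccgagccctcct

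B2M, the light chain shared by all class I molecules, is the only 1 of the 9 outside chromosome 6, on chromosome 15 at 45003556 to 45011049, plus strand. It measured 1353 and 1429 TPM in parental, 1520 and 1556 for SAP30-KO1, 1368 and 1421 for SAP30-KO2, 994 and 1031 for SIN3A+SIN3B-DKO1, 1009 and 1098 for SIN3A+SIN3B-DKO2, 1217 and 1279 for MLL1-KO1, and 1278 and 1287 for MLL1-KO2. All 4 SIN3A+SIN3B-DKO libraries were below every other library. Their means were 72.8% and 75.7% of parental, with log2 fold changes of -0.46 and -0.40 (SE 0.04, limma adjusted p = 8.6e-06 and 2.7e-05), which passed the p threshold and missed 1.5-fold. In the MLL1-KO lines, where HLA-B and HLA-C were called, B2M was at 89.7% and 92.2% of parental, with log2 fold changes of -0.16 and -0.12 (adjusted p = 0.01 and 0.038).

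TAP1 and TAP2 encode the paired subunits of the peptide transporter. They lie on the minus strand at 32812986 to 32821593 and 32789610 to 32806516, with PSMB8 between them. TAP1 measured 6.51 and 7.07 TPM in parental, 6.70 and 6.53 for SAP30-KO1, 6.34 and 6.15 for SAP30-KO2, 5.05 and 5.18 for SIN3A+SIN3B-DKO1, 4.70 and 4.25 for SIN3A+SIN3B-DKO2, 3.86 and 3.37 for MLL1-KO1, and 3.39 and 3.50 for MLL1-KO2. The libraries formed 3 steps without overlap, with parental and SAP30-KO highest and MLL1-KO lowest. TAP1 was at 53.2% and 50.7% of parental in the MLL1-KO lines (log2 fold change -0.83 and -0.89, SE 0.09, limma adjusted p = 1.7e-05 and 8.6e-06). In the SIN3A+SIN3B-DKO lines it was at 75.3% and 65.8% (-0.38 and -0.55, adjusted p = 0.0051 and 0.00051), short of 1.5-fold, and the value in SIN3A+SIN3B-DKO2 was called with a pseudocount of 0.1 (-0.59), with canonical gene lengths (-0.60), and with a running median of neighbours subtracted (-0.61).

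TAP2 measured 8.77 and 9.12 TPM in parental, from 8.92 to 9.64 in the 4 SAP30-KO libraries, 7.70 and 7.40 for SIN3A+SIN3B-DKO1, 7.93 and 8.55 for SIN3A+SIN3B-DKO2, 7.94 and 7.65 for MLL1-KO1, and 6.72 and 6.83 for MLL1-KO2. It was called in no line. In the SIN3A+SIN3B-DKO and MLL1-KO lines the log2 fold change of TAP1 was the more negative of the pair in each case, a difference between genes that was not tested. The log2 fold change of TAP2 ranged over the 6 lines from -0.38 in MLL1-KO2 (SE 0.07, limma adjusted p = 0.00085) to 0.05 in SAP30-KO1.

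TAPBP, which holds the empty heavy chain at the transporter, lies at 33267471 to 33282061 on the minus strand. It measured 41.1 and 39.4 TPM in parental, 34.9 and 34.2 for SAP30-KO1, 35.2 and 34.3 for SAP30-KO2, 26.3 and 25.8 for SIN3A+SIN3B-DKO1, 24.8 and 25.7 for SIN3A+SIN3B-DKO2, 30.7 and 30.8 for MLL1-KO1, and 31.5 and 31.7 for MLL1-KO2. Every edited library was below both parental ones, and no pair of knockout types overlapped, a pattern whose share over all genes was not computed. The log2 fold changes were -0.62 and -0.66 in the SIN3A+SIN3B-DKO lines (SE 0.04, limma adjusted p = 7.6e-07 and 5.7e-07), -0.38 and -0.34 in the MLL1-KO lines, and -0.22 and -0.21 in the SAP30-KO lines (adjusted p = 0.0015 and 0.0018). The last 4 passed the p threshold without reaching 1.5-fold.

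PSMB8 and PSMB9 encode the inducible catalytic subunits LMP7 and LMP2, and lie beside TAP1 at 32808494 to 32812456, minus strand, and at 32811913 to 32827628, plus strand. PSMB9 measured 4.47 and 4.31 TPM in parental, 4.18 and 5.11 for SAP30-KO1, 4.37 and 4.39 for SAP30-KO2, 2.95 and 3.54 for SIN3A+SIN3B-DKO1, 2.84 and 3.56 for SIN3A+SIN3B-DKO2, 2.43 and 2.66 for MLL1-KO1, and 1.39 and 1.75 for MLL1-KO2. Those values rest on 79 to 105 recovered reads a library in MLL1-KO2 and 253 to 269 in parental, the fewest of the 9 genes. PSMB9 was at 58.0% and 35.7% of parental in the MLL1-KO lines, with log2 fold changes of -0.68 and -1.25 (SE 0.14, limma adjusted p = 0.0017 and 1.9e-05), the latter the largest change of the 9 genes in any line. The MLL1-KO lines differed from each other by 0.56 (SE 0.14, adjusted p = 0.0089), which missed 1.5-fold in this fit and passed it with voom on the recovered reads, at 0.72. In both SIN3A+SIN3B-DKO lines PSMB9 was under every parental library, at 73.9% and 72.9% (adjusted p = 0.039 and 0.035), without a call.

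PSMB8 measured 7.95 and 7.97 TPM in parental, 9.15 and 9.38 for SAP30-KO1, 8.69 and 8.77 for SAP30-KO2, from 6.62 to 7.03 in the 4 SIN3A+SIN3B-DKO libraries, and from 5.86 to 6.36 in the 4 MLL1-KO libraries. The 3 knockout types did not overlap, and the SAP30-KO libraries were above parental where the others were below. No line was called. The log2 fold changes were -0.37 and -0.36 in the MLL1-KO lines (SE 0.07, limma adjusted p = 0.0011 and 0.0012) and 0.21 in SAP30-KO1 (adjusted p = 0.033). The span of PSMB9 overlaps those of TAP1 and PSMB8, on the opposite strand, in the annotation, and whether reads were counted by strand is not given in the sources used here, so reads in the shared stretches cannot be told apart.

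The promoters of TAP1 and PSMB9 are shown because these genes are read away from each other from starts 488 bases apart, and both were called in the MLL1-KO lines, and that of TAPBP because it was called in the SIN3A+SIN3B-DKO lines. Capitals and windows are as for HLA-B. TAP1 also has a second RefSeq start, and the window of the start nearest PSMB9 is printed. The 8 genes had 10 windows, of which 7 held AANNGAAA, a motif found in 22.8% of all 35116 RefSeq promoter windows of this length, and 5 held the NF-kappaB consensus, found in 7.73% of windows. TAP1 and TAPBP held 2 AANNGAAA matches each that overlap, and the PSMB9 window had 0 matches to either motif, which says only that these letters are not in it.
TAP1, chr6:32853655-32853954, minus strand: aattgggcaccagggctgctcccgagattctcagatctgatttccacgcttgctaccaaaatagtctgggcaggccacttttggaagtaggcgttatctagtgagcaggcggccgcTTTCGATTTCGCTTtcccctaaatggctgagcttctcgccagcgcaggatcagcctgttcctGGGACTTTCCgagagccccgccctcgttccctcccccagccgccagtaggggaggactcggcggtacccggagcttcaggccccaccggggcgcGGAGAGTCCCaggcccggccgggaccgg
PSMB9, chr6:32853942-32854241, plus strand: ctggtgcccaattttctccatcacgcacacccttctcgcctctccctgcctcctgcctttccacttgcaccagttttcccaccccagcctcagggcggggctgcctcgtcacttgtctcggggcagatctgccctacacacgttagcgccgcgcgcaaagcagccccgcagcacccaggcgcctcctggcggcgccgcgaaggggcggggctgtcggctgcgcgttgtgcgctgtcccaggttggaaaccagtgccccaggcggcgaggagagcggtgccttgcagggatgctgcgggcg
TAPBP, chr6:33314029-33314328, minus strand: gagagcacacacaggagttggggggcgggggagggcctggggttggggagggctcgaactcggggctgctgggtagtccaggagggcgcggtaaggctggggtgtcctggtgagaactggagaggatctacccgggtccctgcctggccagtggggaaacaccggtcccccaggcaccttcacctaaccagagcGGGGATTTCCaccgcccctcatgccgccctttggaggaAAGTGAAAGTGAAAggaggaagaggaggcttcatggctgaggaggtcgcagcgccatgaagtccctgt

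**Figure D2:**
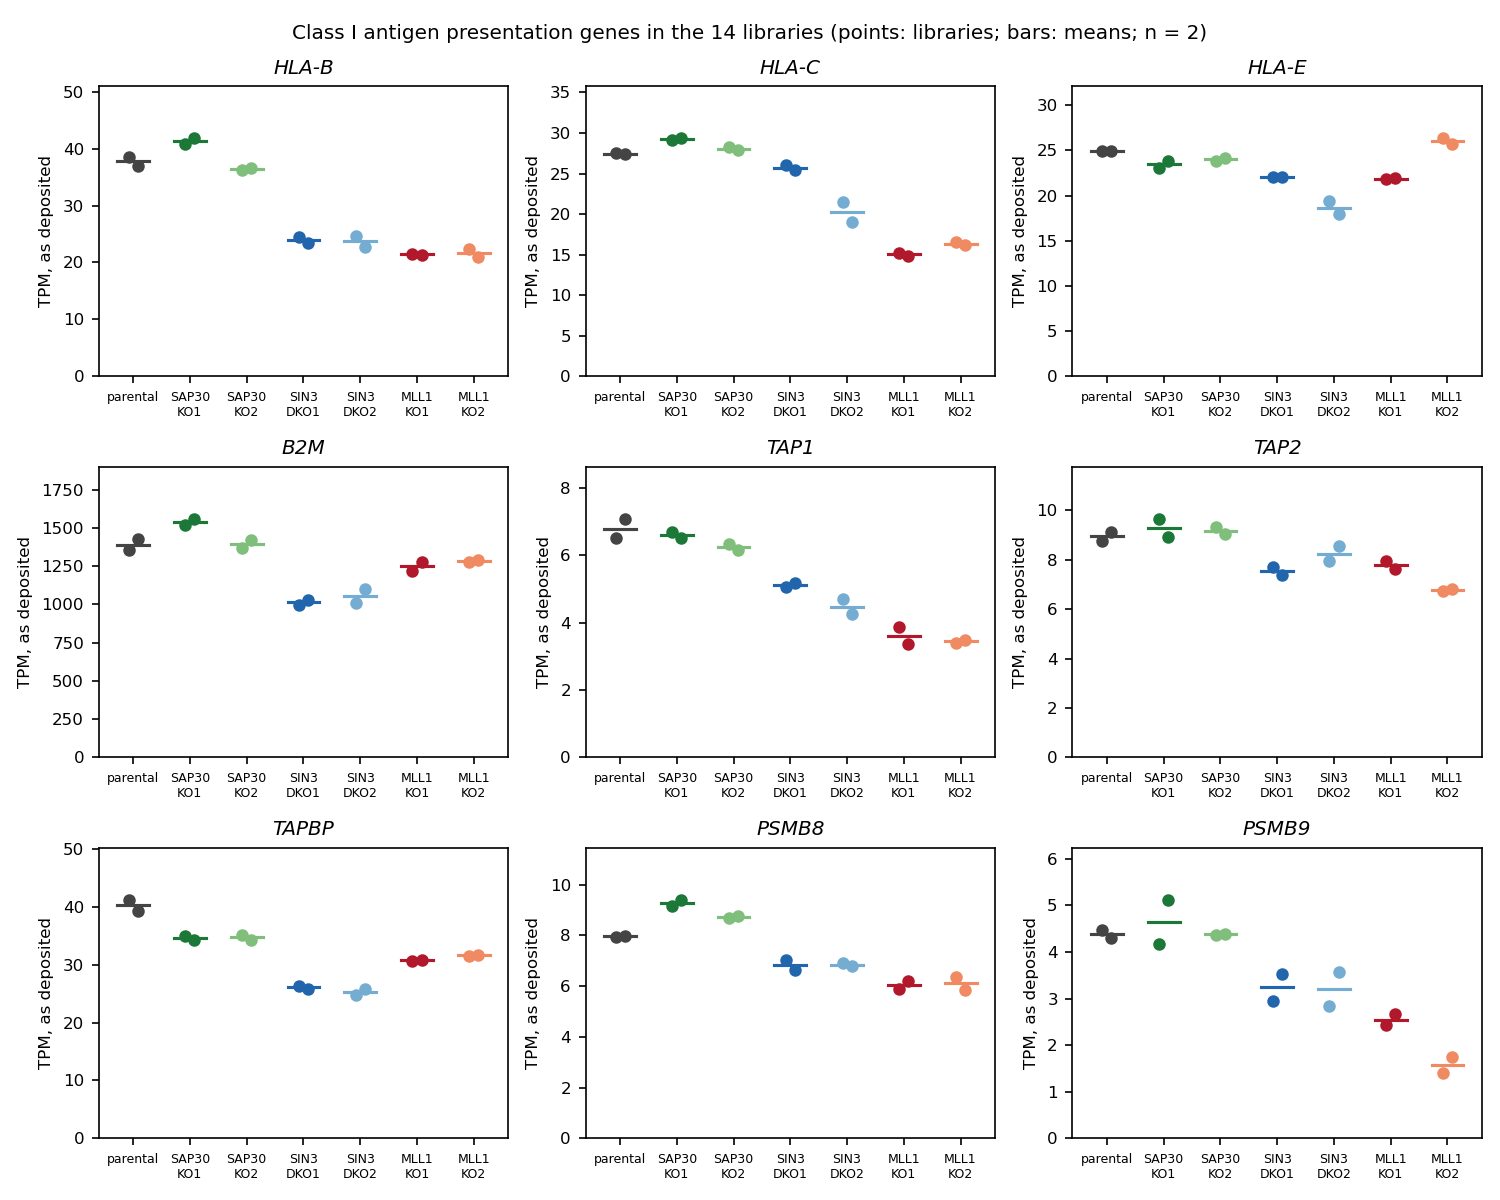
TPM as deposited of each of the 9 genes (1 panel each, axes from 0) in the 14 libraries, grouped by line; points are libraries, bars are means of 2, and SIN3 DKO stands for the libraries labelled SIN3A+SIN3B-DKO. HLA-B and TAP1 drop in the 8 libraries on the right, HLA-C most in the 4 MLL1-KO libraries, and B2M and TAPBP most in the 4 SIN3A+SIN3B-DKO libraries.

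Levels could not be compared between these genes on the deposited scale, because of the gene lengths behind it. A TPM value divides reads by gene length, and the length used for each gene was recovered with its reads. For genes lying between HLA-E and TAPBP on chromosome 6, that length had a median of 7.12 times the canonical transcript in GENCODE over 118 genes, and it was over 4 times in 94.9% of them. Over the other 15497 genes the median was 1.01, and 0.807% were over 4 times. For B2M the ratio was 1.05, with 987 bases behind the value and 943 in the transcript. For the others it ran from 5.92 in TAPBP and 6.14 in HLA-B through 8.80 in TAP1 to 12.6 in PSMB8, where 14174 bases stood against 1124. The cause of the longer values was not tested.

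With TPM rebuilt on canonical lengths, an alternative chosen after seeing the data, parental levels were 1417 ± 55 for B2M (SD, n = 2), 232 ± 7.2 for TAPBP, 226 ± 7.1 for HLA-B, 192 ± 0.74 for HLA-C, 178 ± 0.31 for HLA-E, 97.7 ± 0.16 for PSMB8, 75.3 ± 2.0 for TAP2, 58.1 ± 3.4 for TAP1, and 35.2 ± 0.88 for PSMB9. The rebuilt values keep the recovered reads and change the lengths, so reads shared or lost between alike genes still bear on these levels. Differences between genes were not tested. Deposited parental values put B2M at 1391 and HLA-B at 37.8 TPM, so that the distance between light and heavy chain is wider on that scale. Fold changes between libraries share 1 length per gene, and each call made for the 9 genes on the deposited scale was also made on the rebuilt scale, which added TAP1 in SIN3A+SIN3B-DKO2 and PSMB9 in 2 comparisons between lines or knockout types.

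**Figure D3:**
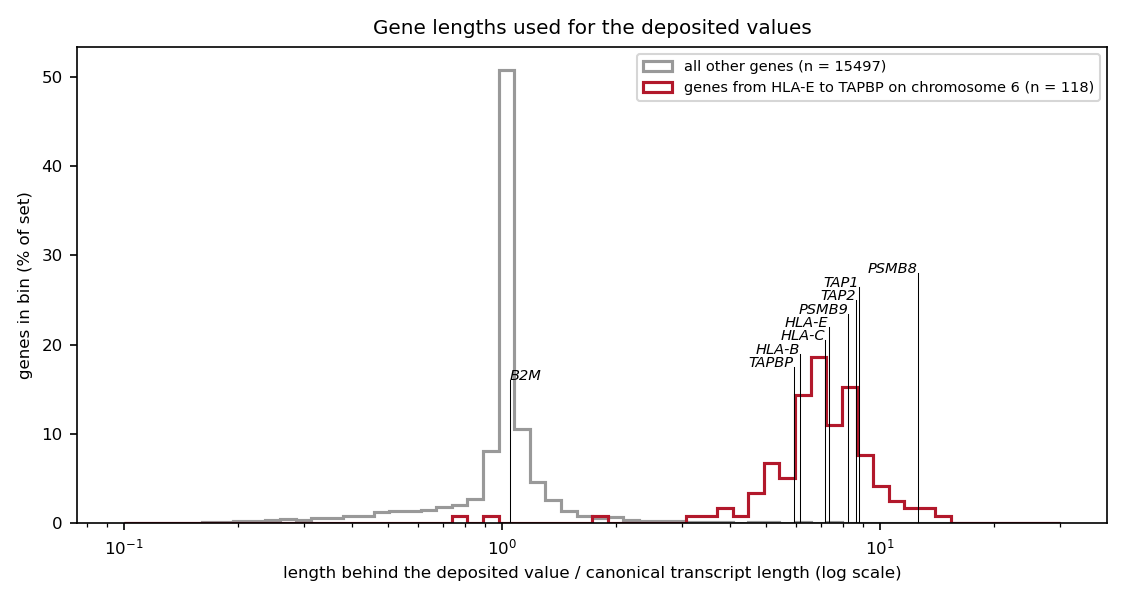
Ratio of the gene length behind the deposited values to the canonical transcript length (horizontal axis, log scale), as percent of genes in each bin, for 118 genes between HLA-E and TAPBP and for all 15497 others; vertical lines mark the 9 class I pathway genes. The 8 genes on chromosome 6 stand between 5.92 and 12.6 with their neighbours, and B2M at 1.05 with the rest of the genome.

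Lines of the same knockout were then compared with each other, to see how far the edited lines repeat. No class I gene was called between SAP30-KO1 and SAP30-KO2, where 0.148% of all tested genes were, between the SIN3A+SIN3B-DKO lines (2.23%), or between the MLL1-KO lines (10.4%, with 443 higher and 968 lower, and 531 and 686 with quantile normalization). By unadjusted limma p under 0.05 the counts were 2, 2, and 3 of 9, with no share of all genes computed. With voom the calls were 0, 0, and 1. The genes that passed an adjusted p under 0.05 without the fold minimum were HLA-C and HLA-E between the SIN3A+SIN3B-DKO lines (0.34 and 0.24), where 12.5% of all genes passed it, and HLA-E and PSMB9 between the MLL1-KO lines, where 42.1% did.

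Knockout types were compared directly as means of the 2 lines of each. The p-values of these comparisons measure the spread between libraries of a line, not the spread between lines of a knockout. HLA-B was higher in SAP30-KO than in SIN3A+SIN3B-DKO libraries by 0.69 on the log2 scale (SE 0.04, limma adjusted p = 1.6e-07), the only 1 of the 9 called there, where 7.47% of all genes were called. All 9 had positive differences in that comparison and passed the p threshold without the fold minimum, as 26.4% of all genes did, from 0.21 for TAP2 to 0.69 for HLA-B, with 0.50 for B2M and 0.43 for TAPBP. Between MLL1-KO and SAP30-KO, 4 were called lower, against 13.5% of all genes. By adjusted p alone 8 of 9 were lower, as were 43.9% of all genes. Those called were HLA-B at -0.83, HLA-C at -0.85, TAP1 at -0.78, and PSMB9 at -0.997, with adjusted p from 8e-09 to 5.6e-06. Quantile normalization moved the median of all genes there by 0.109 and the split of calls from 858 higher and 1823 lower to 1267 and 1289, and TAP1 then missed 1.5-fold at -0.58.

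Between MLL1-KO and SIN3A+SIN3B-DKO no class I gene was called, where 19.9% of all genes were. An unadjusted limma p under 0.05 was found for 8 of 9, with no share of all genes computed. The signs were mixed. The peptide supply genes TAP1 (-0.39), PSMB9 (-0.57), and PSMB8 (-0.16) and the heavy chains HLA-C (-0.53) and HLA-B (-0.14) had lower values in MLL1-KO. HLA-E (0.23), B2M (0.29), and TAPBP (0.28) had higher values in MLL1-KO, and all 8 passed an adjusted p under 0.05 from limma, as 67.8% of all genes did, without reaching 1.5-fold. With voom PSMB9 was called in this comparison, at -0.66. The split over all genes was 936 higher and 1759 lower, and 1242 and 1320 with quantile normalization. The comparisons with parental share their control libraries. The differences of these 3 leave those libraries out, though they enter the estimate of the spread that all groups share.

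The 8 chromosome 6 genes were set beside their neighbours, a comparison chosen after values had been seen. Among the 80 tested genes from HLA-E to TAPBP (chromosome 6, 30457286 to 33282061), 65 were neither HLA genes nor on any list here. Their median log2 fold change was between -0.03 and 0.06 in all 6 lines, where that of the 8 class I genes was -0.53 and -0.55 in MLL1-KO1 and MLL1-KO2 and -0.30 and -0.42 in SIN3A+SIN3B-DKO1 and SIN3A+SIN3B-DKO2. Of the 65, 3 and 4 were called lower in the MLL1-KO lines, and 1 and 1 in the SIN3A+SIN3B-DKO lines. Called higher were 6 and 3 in the MLL1-KO lines and 2 and 0 in the SIN3A+SIN3B-DKO lines. The neighbours' median thus stayed near 0 where that of the class I genes was negative. After subtraction of a running median over 51 neighbours, the call of HLA-B in SIN3A+SIN3B-DKO2 was lost, at -0.58, and TAP1 was called in the same line, at -0.61.

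**Figure D4:**
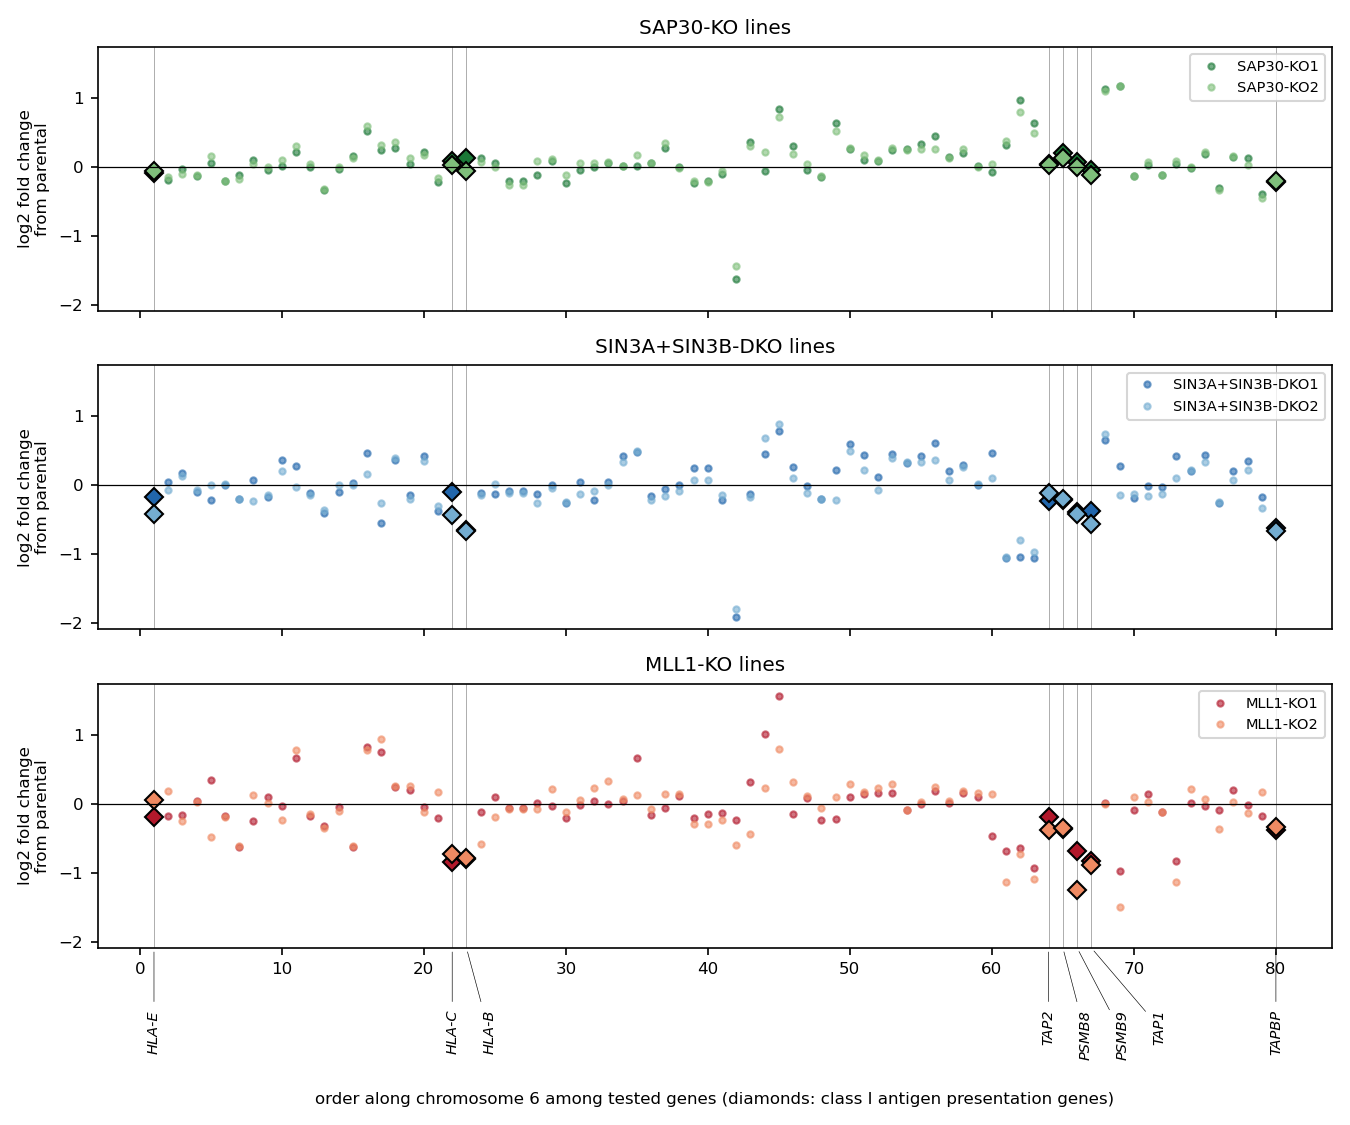
Log2 fold change from parental of the 80 tested genes from HLA-E to TAPBP, in their order along chromosome 6, with 1 panel for each knockout type, 1 color for each line, and diamonds for the 8 class I pathway genes. HLA-B, HLA-C, TAP1, and PSMB9 lie under most of their neighbours in the MLL1-KO panel, where the 65 other genes have a median near 0, and the diamonds of the SAP30-KO panel lie near 0.

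Among the 9 genes, the closest pair over the 14 libraries was HLA-B and PSMB8 (Pearson r = 0.96 of log2 values). Among other pairs, r was 0.96 for HLA-C and TAP1, 0.92 for HLA-B and TAP1, 0.87 for B2M and TAPBP, and -0.08 for HLA-E and TAP2. The 14 points come from 7 lines with 2 libraries each, and r is given as a description. Over all tested genes, the profiles most like that of TAP1 included EEF1A2, a translation elongation factor (r = 0.97), and SCP2, a sterol carrier (0.97). Most like HLA-B were APOL6, an apolipoprotein L (0.98), EEF1A2 (0.97), and TMEM200B (0.96). Most like B2M were DPYD, which breaks down pyrimidines (0.95), CTSH, a lysosomal protease (0.94), and DTX3L, a ubiquitin ligase (0.94). EEF1A2 had log2 fold changes of -4.64 and -4.71 in the MLL1-KO lines, and APOL6 -0.47 and -0.57.

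Further genes of the pathway were taken from lists, and their counts are to be read against the shares of all tested genes. Called higher were 7.80% of all genes in SAP30-KO1, 7.44% in SAP30-KO2, 7.76% in SIN3A+SIN3B-DKO1, 6.0% in SIN3A+SIN3B-DKO2, 6.89% for MLL1-KO1, and 10.2% for MLL1-KO2. Called lower were 7.86% in SAP30-KO1 and 8.12% in SAP30-KO2, beside the shares given above for the other lines, 8.66% and 7.56% in the SIN3A+SIN3B-DKO lines and 16.3% and 14.9% in the MLL1-KO lines. The constitutive subunits that the inducible ones replace were called in no line. PSMB5, the counterpart of PSMB8, had log2 fold changes from 0.15 in MLL1-KO2 to 0.47 in SIN3A+SIN3B-DKO2. PSMB6, the counterpart of PSMB9, had values from 0.10 to 0.43, and PSMB7 from -0.02 to 0.42. PSMB10, the third inducible subunit, stood at -0.56 in each SIN3A+SIN3B-DKO line (adjusted p = 0.00025 and 0.0003, under 1.5-fold) and at -0.02 and -0.05 in MLL1-KO1 and MLL1-KO2. Among the 9 proteasome parts on the list, the assembly factor POMP was called lower in MLL1-KO2 (-0.68) and no other was called in any line.

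Of 11 genes of peptide loading and trimming, 1 and 2 were called lower in MLL1-KO1 and MLL1-KO2 and 0 higher, 1 lower in each SAP30-KO line, and 1 lower and 1 higher in SIN3A+SIN3B-DKO1. For the MLL1-KO lines the shares of all genes called lower were 16.3% and 14.9%. The list's median log2 fold change was -0.46 and -0.49 in the MLL1-KO lines, beside -0.09 and -0.04 for all genes. LNPEP, a trimming aminopeptidase, fell in both (-0.76 and -0.62), and ERAP2, which trims peptides in the endoplasmic reticulum, fell in MLL1-KO2 (-0.59) and SIN3A+SIN3B-DKO1 (-0.66). GANAB, which trims glycans of new glycoproteins, fell in the SAP30-KO lines (-0.70 and -0.68). HSPA5, the chaperone BiP, rose in SIN3A+SIN3B-DKO1 (0.86).

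Of the 25 regulators on the list, 24 were tested, and 1 was called lower in each SAP30-KO line, 1 and 2 in the SIN3A+SIN3B-DKO lines, and 2 in each MLL1-KO line, with 1 higher in SIN3A+SIN3B-DKO1, 1 in MLL1-KO1, and 4 in MLL1-KO2. Over all genes 16.3% and 14.9% were lower in the MLL1-KO lines, and 10.2% higher in MLL1-KO2. NLRC5, the class I transactivator, was called in no line, with log2 fold changes from -0.44 in SIN3A+SIN3B-DKO1 to 0.11 in MLL1-KO2. IRF1 was called lower in SIN3A+SIN3B-DKO2 alone (-0.64), with -0.55 in SIN3A+SIN3B-DKO1 and -0.04 and -0.41 in MLL1-KO1 and MLL1-KO2. RFXAP, a subunit of the RFX complex that binds class I and class II promoters, was called lower in all 6 lines, from -0.94 to -0.67, at 1.46 to 1.85 TPM against 3.27 in parental. In both MLL1-KO lines SOCS1, an inhibitor of JAK kinases, rose (1.20 and 1.56) and IFNAR2, a chain of the type I interferon receptor, fell (-0.62 and -0.59). STAT2 rose in SIN3A+SIN3B-DKO1 (0.66) and MLL1-KO2 (0.62).

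Of 12 class I-like molecules and ligands of natural killer receptors, 9 were tested, and 4 were called lower in each MLL1-KO line, 1 and 2 in the SIN3A+SIN3B-DKO lines, and 1 and 2 in the SAP30-KO lines. Called higher were 1 in each SAP30-KO line, 1 in SIN3A+SIN3B-DKO1, 1 in MLL1-KO2, and 0 in the other 2 lines. Over all genes 16.3% and 14.9% were called lower in the MLL1-KO lines. FCGRT, the B2M-binding neonatal Fc receptor, averaged 15.8 TPM in parental, 10.8 and 10.1 in the SAP30-KO lines, 3.35 and 8.19 in the SIN3A+SIN3B-DKO lines, and 1.23 and 2.76 in the MLL1-KO lines, and was called lower in every line but SAP30-KO1. ULBP3, a ligand of NKG2D, fell in the MLL1-KO lines (-1.98 and -1.30) and the SAP30-KO lines (-0.64 and -0.62). MR1, which presents vitamin B metabolites, fell in the MLL1-KO lines (-0.65 and -1.11) and rose in SIN3A+SIN3B-DKO1 (0.62). RAET1G, another NKG2D ligand, rose in the SAP30-KO lines (0.92 and 0.91). RAET1E, of the same family and chosen after its values were seen, rose in MLL1-KO2 (1.04), at 13.4 TPM on average against 6.29 in parental.

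MHC class II genes, which present peptides taken up from outside the cell, were at low levels on the deposited scale, except CD74. CD74 averaged from 82.9 TPM in MLL1-KO2 to 205 in SAP30-KO2. Of 12 class II genes, 6 were tested. Of these 6, HLA-DRA, HLA-DRB1, HLA-DRB5, and HLA-DMB reached 1 TPM in SAP30-KO libraries only and so passed the filter on low values through them, and no count of class II calls is given. HLA-DRA, the invariant DR chain, had 45 and 45 recovered reads in parental, 69, 66, 88, and 71 in the SAP30-KO libraries, 4, 8, 7, and 6 in the SIN3A+SIN3B-DKO libraries, 23 and 14 for MLL1-KO1, and 5 and 1 for MLL1-KO2. In the last 4 lines its mean TPM was 11.5%, 12.3%, 36.0%, and 6.92% of parental. It was tested only through SAP30-KO libraries, so no call of it is given. Log2 values include the pseudocount and understate changes at such levels. The gene length behind the values was 7.26 times the canonical transcript for HLA-DRA and 8.23 times for HLA-DMA. A longer length lowers TPM, so it bears on these low levels and on the filter. HLA-DRB1 had 25 and 33 reads in parental, 48 to 75 in SAP30-KO libraries, and 1 to 5 in each of the other 8. HLA-DRB5, a close copy whose reads may be shared with HLA-DRB1, had 3 and 6 reads in parental and 0 to 2 in the same 8 libraries.

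HLA-DMA, which edits class II peptides, went in opposite directions. It measured 1.69 and 1.78 TPM in parental, 4.20, 4.86, 4.39, and 4.69 in the SAP30-KO libraries, 2.23, 2.18, 1.76, and 1.31 in the SIN3A+SIN3B-DKO libraries, 0.586 and 0.692 for MLL1-KO1, and 0.279 and 0.309 for MLL1-KO2. Unlike those 4 genes, it reached 1 TPM outside the SAP30-KO libraries too. It rose by 1.17 and 1.18 in the SAP30-KO lines and fell in the MLL1-KO lines by 0.97 and 1.49 on the log2 scale, which understates changes at such levels. CD74, the class II invariant chain, chosen after its values were seen, rose in the SAP30-KO lines (1.09 and 1.15) and in MLL1-KO1 (0.92), and averaged 175 and 82.9 TPM in the MLL1-KO lines. HLA-DMB, the partner of HLA-DMA and chosen in the same way, averaged 0.208 TPM in parental, 1.06 and 1.02 in the SAP30-KO lines, 0.620 and 0.682 in the SIN3A+SIN3B-DKO lines, and 0.210 in each MLL1-KO line. HLA-DMB passed the filter on low values only through SAP30-KO libraries, so these means are a description and no test of it is given.

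**Figure D5:**
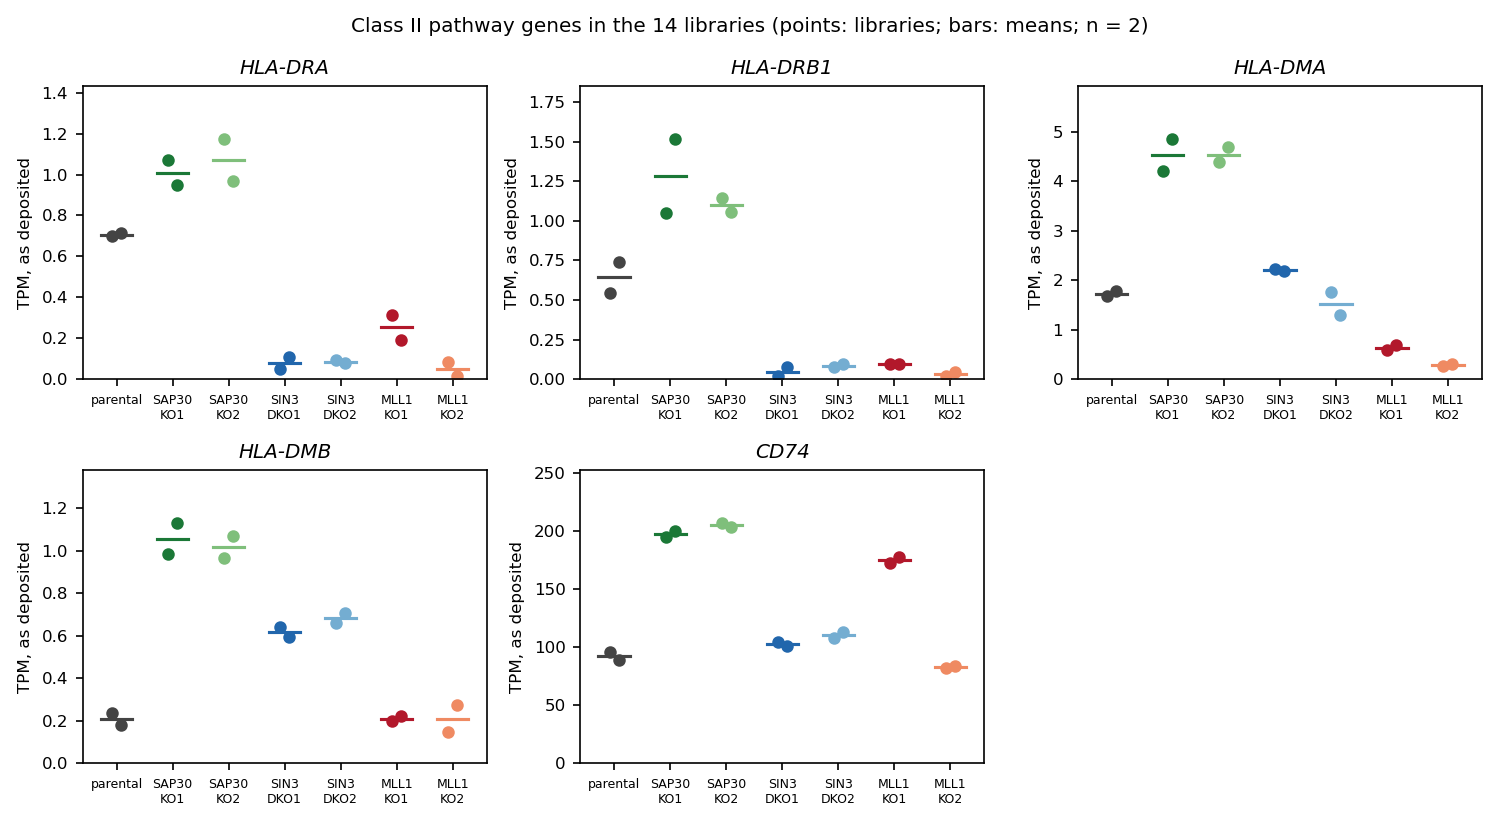
TPM as deposited (vertical axes, from 0) of 5 genes of the class II pathway in the 14 libraries; points are libraries, bars are means of 2, and SIN3 DKO stands for the libraries labelled SIN3A+SIN3B-DKO. HLA-DRA and HLA-DRB1 are near 0 in the SIN3A+SIN3B-DKO libraries and in MLL1-KO2, and HLA-DMA, HLA-DMB, and CD74 are highest in the SAP30-KO libraries, with HLA-DMB also above parental in the SIN3A+SIN3B-DKO libraries and CD74 in MLL1-KO1.

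Because class I and class II genes are also carried by blood cells, markers of other cell types were measured. Of 13 leukocyte markers, 11 were in the table. Their summed level was 98.7 to 101 TPM in parental, 202 to 211 in the SAP30-KO libraries, 125 to 163 in the SIN3A+SIN3B-DKO libraries, and 217 to 228 in the MLL1-KO libraries, of which LAPTM5 alone made up from 93.2 TPM on average in parental to 215 in MLL1-KO2. Of the defining markers, CD3E and CD2 were at 0 to 1 read. CD3D had 2 to 7 reads in parental, 2 to 3 in SIN3A+SIN3B-DKO2, and 0 in the other lines. PTPRC was at 0.0251 to 0.543 TPM in the group means, or 1 to 38 reads a library. Markers of myeloid cells were not at 0. CSF1R, a receptor of macrophages, had 15 to 20 reads in parental, 119 to 139 in the SAP30-KO libraries, 35 to 60 in the SIN3A+SIN3B-DKO libraries, and 77 to 97 in the MLL1-KO libraries, and reached 1 TPM in edited libraries only. LYZ, or lysozyme, averaged 1.44 TPM in parental, 3.12 and 2.15 in the SAP30-KO lines, 2.06 and 1.87 in the SIN3A+SIN3B-DKO lines, and 6.08 and 5.64 in the MLL1-KO lines. CD14, a monocyte receptor, averaged 2.10 TPM in parental, 3.59 and 3.58 in the SAP30-KO lines, 2.16 and 1.86 in the SIN3A+SIN3B-DKO lines, and 0.753 and 1.23 in the MLL1-KO lines. CSF1R thus passed the filter on low values through edited libraries only, and no count of leukocyte marker calls is given. Fibroblast markers (6 of 6 in the table) summed to 6.34 to 15.3 TPM and endothelial markers (4 of 4) to 3.31 to 9.61. Of the markers of the line itself, VIM averaged 5785 to 8688 TPM and ESR1 and PGR were at 0 to 0.125 TPM in the group means. ERBB2, listed as low in such a line, was not near 0. It averaged 42.15 TPM in parental and from 22.31 in SIN3A+SIN3B-DKO1 to 28.59 in MLL1-KO2 among the edited lines. Of the 8 on that list 6 were tested. Called lower were 4 and 3 in the SAP30-KO lines, 3 and 2 in the SIN3A+SIN3B-DKO lines, and 2 and 2 in the MLL1-KO lines. Called higher were 2 and 1 in the MLL1-KO lines. Over all genes 7.86% and 8.12% were called lower in the SAP30-KO lines and 8.66% and 7.56% in the SIN3A+SIN3B-DKO lines. In the MLL1-KO lines 16.3% and 14.9% of all genes were called lower and 6.89% and 10.2% higher. The epithelial marker EPCAM fell in all 6 lines, from 19.2 TPM in parental to between 6.07 in MLL1-KO2 and 12.1 in SIN3A+SIN3B-DKO2 on average, and KRT18, a simple epithelial keratin, averaged 761 TPM in parental and 363 to 549 in the edited lines. LAPTM5 was above parental in all 6 lines. The part of these markers in the class I and class II results was not tested.

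PD-L1, encoded by CD274, is a checkpoint ligand read by the same T cells. Among the 4 partners in immune recognition on the list, CD274 was called higher in SAP30-KO1 (0.61), and no other call was made. Its log2 fold changes were 0.47 in SAP30-KO2, 0.58 and 0.49 in the SIN3A+SIN3B-DKO lines, and -0.09 and -0.56 in the MLL1-KO lines.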

How the data were processed

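RNA-Seq of 14 libraries, 2 for each of 7 lines, was analysed from a table the authors deposited of gene values named RPKM. Every library's values, as deposited by the authors, summed to 1000000, so they were treated as TPM, reads per gene length scaled to a fixed total. Per the labels, reads were processed with FastQC 0.11.2, TopHat, and featureCounts on hg19; the annotation is not given in the sources used here. Names of 28 genes had become dates and were left as they were. Low values were whole multiples of a read's worth, from which reads and gene lengths were recovered for 18519 of 18519 genes (100.0% of values whole, within 0.02).

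log2(TPM + 0.5) was tested with limma 3.58.1 in R 4.3.3 over the 13540 genes with at least 1 TPM in at least 2 libraries, as 7 group means (7 residual degrees of freedom) with a variance trend and Benjamini-Hochberg adjustment. Scripts were tested on simulated data. TPM is relative, so a rise in abundant genes lowers the rest. Alternatives were other pseudocounts, filters, scalings, and fold minima, voom on recovered reads, single libraries left out, a replicate block, and neighbours' medians subtracted. TPM rebuilt on canonical transcript lengths was chosen after seeing the data. Positions came from GENCODE 44 on GRCh37, and promoters from RefSeq on GRCh38.p14.

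The 9 genes and the gene lists were chosen with earlier results of these data known. Named from each list were up to 4 genes called in the most lines, NLRC5, IRF1, PSMB5, PSMB6, and PSMB7, and for TAP1, HLA-B, and B2M the 3 genes with the highest correlation. Results of some genes that these rules name are not reported here.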

Additional observations from a re-analysis of the deposited data

Results flagged for a closer look

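The level of a class I gene differed between the lines of 2 knockout types for 5 pairs, by the limma test of the difference between the means of the lines. The spread in that test is the one between libraries of a line, and the spread between the 2 lines of a knockout does not enter it. The parental libraries do not enter these differences, only the estimate of the spread. HLA-B was higher in the SAP30-KO lines than in the SIN3A+SIN3B-DKO lines by 0.69 on the log2 scale, with all 4 SAP30-KO libraries above all 4 of the others. Between the MLL1-KO and SAP30-KO lines the difference was -0.83 for HLA-B, -0.85 for HLA-C, -0.78 for TAP1, and -0.997 for PSMB9, and in each case all 4 MLL1-KO libraries lay below all 4 SAP30-KO libraries. No sample of these groups of 2 could be tested as standing apart from its group.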

How the results depend on the processing

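No call of the 9 genes changed direction under any alternative, and beside the fold minimum 3 were lost, those of PSMB9 in MLL1-KO1 (-0.39) and TAP1 between MLL1-KO and SAP30-KO (-0.58) with quantile normalization and of HLA-B in SIN3A+SIN3B-DKO2 (-0.58) with the running median subtracted. Without a filter, with a pseudocount of 1, and with a fit of only the libraries compared, no count or call of the 9 genes changed. Replicate numbers did not pair the libraries (the correlation of deviations over 21 pairs was from -0.073 to 0.082, mean 0.015), and with a replicate block the counts of called class I genes stayed at 0, 0, 2, 2, 4, and 4 in SAP30-KO1, SAP30-KO2, SIN3A+SIN3B-DKO1, SIN3A+SIN3B-DKO2, MLL1-KO1, and MLL1-KO2, while over all genes MLL1-KO1 had 929 higher and 2212 lower.

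With a 2-fold minimum the counts became 0 and 0 in the SIN3A+SIN3B-DKO lines, 0 and 1 in MLL1-KO1 and MLL1-KO2, 0 between SAP30-KO and SIN3A+SIN3B-DKO, and 0 between MLL1-KO and SAP30-KO. With no fold minimum they became 3 and 1 in the SAP30-KO lines, 8 and 8 in the SIN3A+SIN3B-DKO lines, 9 and 8 in the MLL1-KO lines, 2 between the SIN3A+SIN3B-DKO lines, 2 between the MLL1-KO lines, and 9, 8, and 8 between knockout types. Between the MLL1-KO lines the count became 1 with a pseudocount of 0.1, quantile normalization, median-ratio scaling, the running median subtracted, voom, and canonical lengths, and between MLL1-KO and SIN3A+SIN3B-DKO it became 1 with a pseudocount of 0.1, voom, and canonical lengths. The gene was PSMB9 in each. In SIN3A+SIN3B-DKO2 TAP1 was also called with a pseudocount of 0.1 (-0.59), canonical lengths (-0.60), and the running median subtracted (-0.61).

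With single libraries left out, counts were 0 to 0 in each SAP30-KO line, 2 to 2 in SIN3A+SIN3B-DKO1, 2 to 3 in SIN3A+SIN3B-DKO2, 4 to 4 in each MLL1-KO line, 0 to 0 between the SAP30-KO lines and between the SIN3A+SIN3B-DKO lines, 0 to 1 between the MLL1-KO lines, 1 to 1 between SAP30-KO and SIN3A+SIN3B-DKO, 4 to 4 between MLL1-KO and SAP30-KO, and 0 to 1 between MLL1-KO and SIN3A+SIN3B-DKO. TAP1 was called in SIN3A+SIN3B-DKO2 without parental replicate 1 (-0.61) or SIN3A+SIN3B-DKO2 replicate 1 (-0.62). PSMB9 was called between the MLL1-KO lines without MLL1-KO1 replicate 1 (0.62) or MLL1-KO2 replicate 2 (0.69), and between MLL1-KO and SIN3A+SIN3B-DKO without replicate 1 of either SIN3A+SIN3B-DKO line or replicate 2 of either MLL1-KO line (-0.64 to -0.59).

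Signs turned only for values that were not called. In SAP30-KO2, B2M became -0.0207 with quantile normalization, -0.0227 with median-ratio scaling, and -0.0343 with the running median subtracted, and PSMB9 became 0.0325 with quantile normalization and 0.0126 with voom. With the running median subtracted TAP2 became -0.082 and PSMB9 -0.0807 in SAP30-KO1, TAP2 became -0.105 and PSMB8 -0.0186 in SAP30-KO2, and TAP2 became 0.0532 between MLL1-KO and SIN3A+SIN3B-DKO. With quantile normalization TAP2 became 0.0333 in MLL1-KO1 and 0.0313 between MLL1-KO and SIN3A+SIN3B-DKO. With single libraries left out the ranges were -0.0357 to 0.0435 for B2M and -0.0255 to 0.0199 for PSMB9 in SAP30-KO2, -0.0911 to 0.0199 for TAP1, -0.0034 to 0.102 for TAP2, and -0.0626 to 0.199 for PSMB9 in SAP30-KO1, and -0.0037 to 0.019 for HLA-E between MLL1-KO and SAP30-KO. The cause was not tested. Depth limits PSMB9 and the class II genes, which had the fewest reads.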
